A study of Drosophila virilis and Drosophila willistoni and Drosophila miranda with 119 samples.

Results

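The genes en, inv, wg, hh, gsb, ptc, ci and smo were followed in embryos of 14 Drosophila species. They are the segment polarity genes and core Hedgehog signalling genes chosen by symbol, 8 of the 17674 genes in the deposited table of orthologs, and all 8 symbols were found. Messenger RNA had been sequenced from 119 single embryos, 64 at stage 2, when the mRNA is that laid down by the mother, and 55 at stage 5, the cellularizing blastoderm in which the zygotic genome is active. Each value is the authors' FPKM (sequenced fragments per length of transcript and per size of library) for a gene, a species and a stage, and it combines the 3 to 7 embryos of that group. Species are therefore the replicates, 13 of them with both stages, and the spread between embryos enters no test.

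Both stages were compared in D. simulans, D. sechellia, D. mauritiana, D. yakuba, D. santomea and D. erecta, which belong to the melanogaster subgroup, and in D. ananassae, D. pseudoobscura, D. persimilis, D. miranda, D. willistoni, D. mojavensis and D. virilis. D. melanogaster entered at stage 2 only. All flies were kept on molasses food and each embryo was staged from an image. The labels give parental genotypes for D. pseudoobscura (Flagstaff 14 mothers, PP1134 fathers) and D. miranda (MSH22 mothers, SP138 fathers). In these species stage 5 embryos were titled latest5 with a sex, the molecule was given as total RNA rather than polyA RNA, and 1 D. pseudoobscura stage 2 embryo was marked as possibly unfertilized. Data from 5 species (D. mojavensis, D. persimilis, D. santomea, D. sechellia and D. simulans) are labelled as mixed with those of D. melanogaster at each stage, and D. virilis data at stage 2 only. D. santomea genes carry D. yakuba identifiers in the table. In D. mauritiana and D. miranda the identifiers of all genes, 11361 and 9087 of them, have the form of protein names.

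Segment polarity genes fix the borders and the polarity of each body segment. Along each border one row of cells makes the transcription factor Engrailed and secretes Hedgehog, and the adjacent row secretes the Wnt protein Wingless, each row keeping the other in its state. Without Hedgehog the receptor Patched holds the membrane protein Smoothened inactive and Cubitus interruptus is cut to a repressor. When Hedgehog binds Patched, Smoothened is released and full-length Cubitus interruptus activates target genes, ptc and wg among them.

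The stage labels were checked against marker mRNAs. The summed FPKM of 5 maternal mRNAs (osk, bcd, nos, gnu and aret) ranged from 703 to 1564 at stage 2 and from 20.4 to 132 at stage 5, and all 5 fell. That of 7 blastoderm genes (ftz, eve, Kr, sna, twi, nullo and Sry-alpha) ranged from 0.0133 to 13.1 at stage 2 and from 671 to 2132 at stage 5, and all 7 rose. Of all genes tested, 16.2% fell and 30.8% rose. In every species ftz, eve, Kr, twi and nullo were below 1 FPKM at stage 2. They passed the filter on mean FPKM through stage 5 alone and had to differ, so the count of rises is a description. The call of osk was lost without that filter (limma adjusted p = 0.0667). Of 9 genes of later or other tissues only the neuronal gene elav reached the level needed for testing. The elav median went from 0.178 FPKM at stage 2 to 30.9 at stage 5, with a highest stage 5 value of 116. It was higher at stage 5 in 11 of 11 species, so this marker of a later tissue was not absent. The highest values of aly were 2.57 FPKM at stage 2 and 5.03 at stage 5, with medians of 0 and 0.161. The eggshell genes Cp36 and Vm26Aa stayed below 0.06 FPKM in every group. Whole embryos were measured, so more cells expressing a gene and more mRNA per cell cannot be told apart.

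At stage 2 smo was the one gene of the 8 with mRNA above 1 FPKM. Its level, at a median of 24.7 FPKM, ran from 20.4 in D. willistoni to 58.7 in D. erecta, and it was at least 1 in 14 of 14 species. The other 7 genes were below 1 FPKM in every species that had a value. The highest of these were ptc at 0.607 in D. mojavensis and ci at 0.444 in D. simulans. Transcripts of hh were listed at 0 in 11 of 12 species, those of en and gsb in 9 of 14 each, those of inv in 8 of 14 and those of wg in 2 of 12. Within species, the log2(FPKM+1) level of smo at stage 2 exceeded that of ci by 4.69 ± 0.43 (SD, n = 14 species), in 14 of 14 species (exact sign-flip permutation test, two-sided, adjusted p = 0.00130 over 16 pairs compared). The pair was picked from the order of medians at this stage, so the p-value is a description.

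By stage 5 every gene of the group except inv, which stayed near 0, had risen past the threshold for a call. Of the 8 genes, 7 had a mean FPKM of at least 1 and were tested, and all 7 rose in every species with a value, beside 30.8% of all 7618 genes tested that rose and 23.2% that rose in every species. Of these 7 genes, 6 were below 1 FPKM at stage 2 in every species, so they passed the filter through stage 5 alone and had to differ, and inv was removed by the same filter. The count, the median over the 7 and the limma p-values given below for those 6 genes are therefore descriptions. Only smo was above the filter level at both stages. The median change of the 7 genes was 3.50 on the log2(FPKM+1) scale, against 0.40 for all genes tested. The middle 80% of all genes tested lay between -1.58 and 2.04. The percentages depend on scaling. As deposited, 65.5% of all calls were rises (2346 of them, with 1235 falls). Median centring gave 49.5% (1673 rises, 1705 falls) and quantile normalization 45.9% (1357 and 1601). Equal column totals over genes below 100000 FPKM gave 17.5% (656 and 3099). These rescalings moved the median of all genes by -0.37, -0.34 and -1.06. The 7 genes were called higher under each of them. The threshold for a call was a limma adjusted p under 0.05 together with a change of 1 or more in size, and the scale understates changes that start near 0. With a pseudocount of 0.1 in place of 1 the changes were 5.36 for en, 5.83 for hh, 6.60 for gsb and 7.82 for wg.

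**Figure D1:**
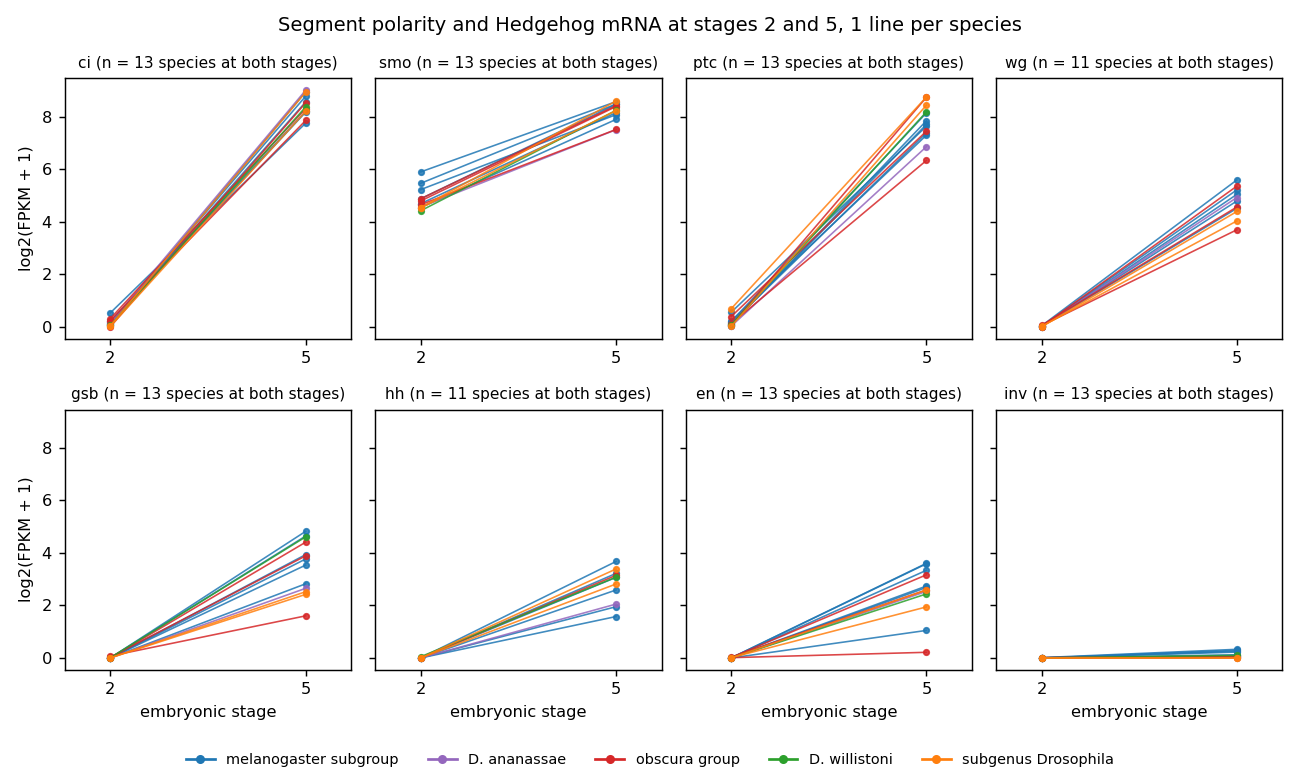
Level of each of the 8 genes as log2(FPKM + 1) at embryonic stages 2 and 5, with 1 line per species coloured by clade. Only smo starts above 4 at stage 2, ci, smo and ptc end highest, and inv stays close to 0.

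The ligand genes rose to moderate levels. For wg, the Wnt ligand of the segment border, stage 2 values ran from 0 in D. santomea and D. mojavensis through a median of 0.00891 to 0.0388 FPKM in D. pseudoobscura. At stage 5 they ran from 12.0 in D. miranda through 26.7 to 47.3 in D. yakuba. The stages did not overlap, and on the log2(FPKM+1) scale wg rose by 4.72 ± 0.58 (SD, n = 11 species, limma adjusted p = 3.00e-11). D. simulans and D. willistoni had no wg value.

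The mRNA of hh, which encodes the secreted ligand of the pathway, was lower. Its stage 5 level ran from 1.98 FPKM in D. mauritiana through a median of 7.40 to 11.8 in D. yakuba, and its highest stage 2 value was 0.0346 in D. willistoni. The stages did not overlap here either, and hh rose by 2.77 ± 0.66 (SD, n = 11 species, limma adjusted p = 1.93e-08). D. pseudoobscura and D. miranda had no hh value. Within a species the ratio of wg to hh FPKM ran from 1.62 in D. virilis to 11.0 in D. mauritiana, with a median of 4.88 (n = 9 species).

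The receptor ptc was among the strongest of the 8 genes. Its level moved from a median of 0.0784 FPKM at stage 2, with a range of 0.00945 to 0.607, to 208 at stage 5, with a lowest value of 79.8 in D. miranda and a highest of 431 in D. mojavensis. All stage 5 values lay above all stage 2 values. On the log2(FPKM+1) scale it rose by 7.55 ± 0.70 (SD, n = 13 species, limma adjusted p = 9.13e-14), which placed it at rank 42 among the changes of all genes tested, counted from the largest rise.

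The signal transducer smo rose from its maternal level. Stage 5 values ran from 181 FPKM in D. ananassae through 302 to 386 in D. mojavensis, above the stage 2 level in all 13 species. Because smo was well above 0 at both stages its change can be read as a fold, which was 11.0 ± 3.28 (SD, n = 13 species) and ran from 6.48 in D. erecta through a median of 11.5 to 17.3 in D. mojavensis. D. erecta, with the smallest fold, had the highest stage 2 level. On the log2(FPKM+1) scale smo rose by 3.35 ± 0.43 (limma adjusted p = 4.88e-12), the smallest SD of the 7 genes, and by 2.04 with equal column totals.

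The transcription factor gene ci showed the largest change of the 8. Its level was between 0.00111 FPKM in D. persimilis and 0.444 in D. simulans at stage 2, with a median of 0.0828. At stage 5 it was between 215 in D. simulans and 514 in D. ananassae, with a median of 330. The median species put ci at the 95.4th percentile of all genes listed at stage 5, beside 95.6 for smo and 93.6 for ptc. It rose by 8.28 ± 0.51 (SD, n = 13 species, limma adjusted p = 3.43e-14), at rank 22 of all genes tested.

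Among the nuclear factors that mark cell rows, gsb, a paired-type homeodomain gene needed for wg expression, was highest. It went from at most 0.0526 FPKM at stage 2 to values between 2.04 in D. miranda and 27.3 in D. santomea at stage 5, with a median of 12.6. The rise was 3.50 ± 1.03 (SD, n = 13 species, limma adjusted p = 8.49e-09). Its neighbouring copy gsb-n was far below it, with a stage 5 median of 0.00805 FPKM and a highest value of 0.0398. Within species gsb exceeded gsb-n at stage 5 by 3.49 ± 1.02 (SD, n = 13 species, 13 of 13, exact sign-flip permutation test, adjusted p = 0.00130).

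The homeodomain gene en, the marker of the posterior compartment, had the widest ratio of highest to lowest FPKM between species at stage 5, leaving out inv, which was listed at 0 in some species. At stage 5 it was at 0.161 FPKM in D. miranda and 1.07 in D. mauritiana, between 2.85 and 9.12 in 9 species, and at 11.0 in D. erecta and 11.2 in D. yakuba. The median was 5.03, and all values lay above the highest stage 2 value of 0.0208. It rose by 2.49 ± 0.97 (SD, n = 13 species, limma adjusted p = 2.99e-07), the smallest rise of the 7 genes, and by 2.83 without D. miranda and D. mauritiana, an alternative chosen after seeing the data.

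The en paralog inv, whose protein shares roles with Engrailed, was almost absent from these tables. At stage 5 it was listed at 0 in D. ananassae, D. mojavensis and D. virilis, its median was 0.0539 FPKM and its highest value was 0.256 in D. simulans. Stage 2 and stage 5 values overlapped. With a mean of 0.0432 FPKM it was not tested in the main comparison. Without the filter on mean FPKM its change was 0.11 ± 0.12 (SD, n = 13 species, limma adjusted p = 0.0174), under the change required for a call. The change was upward in 10 of these species and downward in 0. Within species en exceeded inv at stage 5 by 2.38 ± 0.92 on the log2(FPKM+1) scale, in 13 of 13 species (exact sign-flip permutation test, adjusted p = 0.00130). In the RefSeq annotation of D. virilis (assembly Dvir_AGI_RSII-ME) inv lies directly beside en, gsb-n directly beside gsb, and wg between Wnt4 and Wnt6. Fragments from similar stretches of such copies can be assigned to either of them, so the low values of inv and gsb-n are uncertain to that extent.

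**Figure D2:**
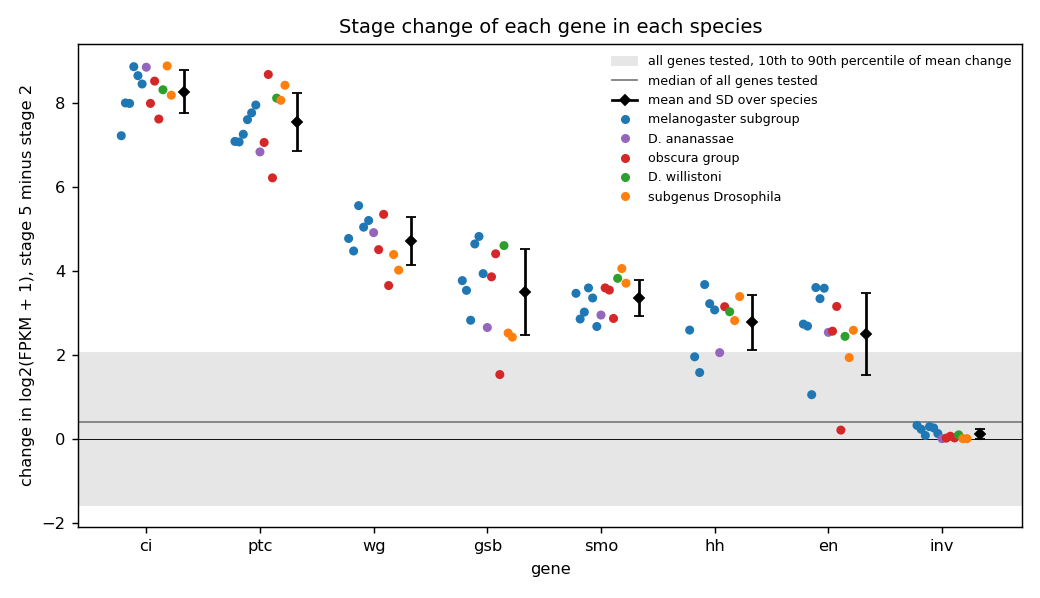
Change of each gene from stage 2 to stage 5 in log2(FPKM + 1), 1 point per species coloured by clade, with the mean and SD over species as a black diamond and bar. The grey band spans the middle 80% of the mean changes of all genes tested (-1.58 to 2.04) and the grey line is their median (0.40). All points of ci, ptc, wg and smo lie above the band, while D. miranda, D. mauritiana and D. mojavensis for en, D. sechellia and D. mauritiana for hh, and D. miranda for gsb lie inside it.

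FPKM is scaled by length, so the genes could be ranked within a species. At stage 5 the order of medians was ci, smo, ptc, wg, gsb, hh, en and inv. Apart from the paralog pairs, each gene was compared with the next in this order. Those pairs were thus picked from the values tested, and their p-values are descriptions. The first pair could not be separated, since ci exceeded smo by 0.24 ± 0.50 on the log2(FPKM+1) scale in 8 of 13 species (exact sign-flip permutation test, two-sided, adjusted p = 0.158). Further down, smo exceeded ptc by 0.44 ± 0.51 in 10 of 13 species (exact test, adjusted p = 0.0208), a call lost without D. pseudoobscura and D. miranda (0.33, adjusted p = 0.0764). The widest step was from ptc to wg, 2.99 ± 0.80 in 11 of 11 species (exact test, adjusted p = 0.00260). Next, wg exceeded gsb by 1.35 ± 0.63 in 11 of 11 species (exact test, adjusted p = 0.00260) and gsb exceeded hh by 0.87 ± 0.82 in 9 of 11 (exact test, adjusted p = 0.0208). The levels of hh and en were not separated, with a difference of 0.08 ± 0.56 and hh higher in 5 of 11 species (exact test, adjusted p = 0.722). With 11 species the smallest unadjusted p of this test is 0.000977, and with 13 it is 0.000244.

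At stage 2 the steps below smo were small in size. The levels of ci and ptc were not separated (difference -0.04 ± 0.19, n = 14 species, exact test, adjusted p = 0.722). The level of ptc exceeded that of wg by 0.15 ± 0.19 in 12 of 12 species (exact test, adjusted p = 0.00195). The difference of wg over en, 0.01 ± 0.02, was past the threshold (exact test, adjusted p = 0.0208) but not without D. pseudoobscura and D. miranda (adjusted p = 0.0764). Of the 16 pairs at both stages 9 were past it, and 7 without those species. At this stage too the pairs other than paralogs were picked from the order of medians, so the count is a description. The stage 2 medians of en, inv, hh and gsb were all 0, and these genes were ordered as in the gene list.

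Ratios of FPKM within a species put the receptor, the transducer and the transcription factor side by side. At stage 5 the ratio of ci to ptc was 0.848 in D. virilis, 1.76 in the median species and 4.46 in D. ananassae. That of smo to ptc ran from 0.800 in D. persimilis to 2.28 in D. miranda, and that of ci to smo from 0.756 in D. simulans to 2.84 in D. ananassae. D. ananassae had the highest ci, the lowest smo and the second lowest ptc. The ratio of gsb to en ran from 0.871 in D. virilis to 12.6 in D. miranda, with a median of 2.23.

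Species differed least in smo and ci and most in gsb and en. At stage 5 the ratio of the highest to the lowest species was 2.13 for smo, 2.39 for ci, 3.95 for wg, 5.40 for ptc, 5.93 for hh, 13.4 for gsb and 69.2 for en. D. miranda was the lowest species for en, wg, gsb and ptc and lay below the species median in 7 of 7 genes with a value. The mean deviation of its en, gsb and wg from the species medians was -1.88 on the log2(FPKM+1) scale, beside -0.45 for its 7 blastoderm markers. Those markers were uneven in D. miranda, with sna at 29.2 FPKM against a species median of 170 and Sry-alpha at 701 against 583. D. mauritiana was lowest for hh and next to lowest for en, with a mean deviation of -1.07 for en, hh, gsb and wg beside -0.36 for the blastoderm markers. Its markers were uneven too, with eve at 12.6 FPKM against a median of 35.7 and sna at 311 against 170. D. yakuba was highest for en, wg and hh and below the median in 0 of 8 genes, with deviations of 0.82 and 0.17. In D. virilis (-0.45 and -0.77) and D. simulans (-0.11 and -0.48) the blastoderm markers were instead further below their medians than these genes. D. simulans had no wg value.

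For the table as a whole the same counts were taken. Of 3496 genes present in all species and expressed, D. miranda had the lowest stage 5 value in 15.6% and D. mauritiana in 7.18%, and D. yakuba had the highest in 5.29%. D. miranda and D. mauritiana are the species with protein identifiers, and D. miranda is also one of those labelled total RNA and titled latest5. The part of these features in the low values was not tested.

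**Figure D3:**
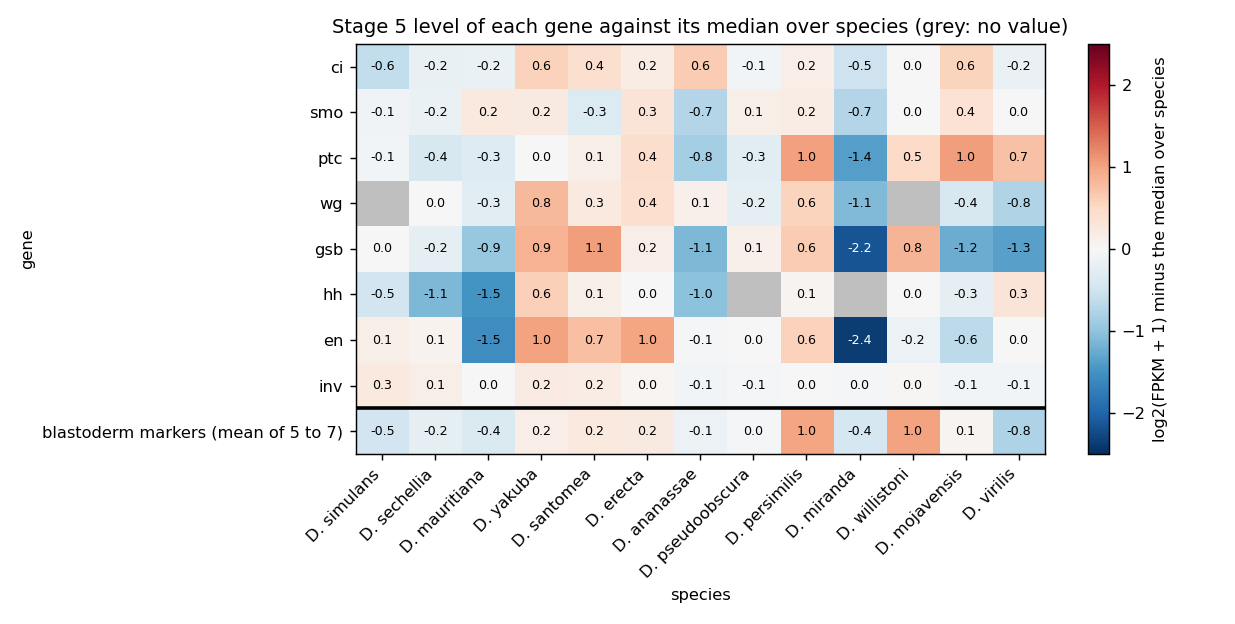
Deviation of each gene's stage 5 log2(FPKM + 1) from its median over species, genes in rows and species in columns, with grey where a species has no value. The bottom row is the mean deviation of the 5 to 7 blastoderm markers with a value. D. miranda is at or below 0 throughout, D. yakuba is at or above 0 throughout, and D. mojavensis and D. virilis are low for wg and gsb and high for ptc.

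The levels of en, wg and gsb were positively correlated across species. Across species at stage 5 the correlation of en with wg was 0.74 (Pearson) and 0.84 (Spearman) over 11 species, that of en with gsb 0.75 and 0.63 over 13, and that of wg with gsb 0.82 and 0.77 over 11. Without the 2 species farthest from the median of the first gene of a pair the Pearson values were 0.80, 0.66 and 0.68. The correlation of en with hh was 0.67 over 11 species and 0.37 without D. mauritiana and D. erecta. That of wg with hh was 0.22 over 9 species and 0.86 without D. virilis and D. mojavensis. That of hh with gsb was 0.47 (Pearson) and 0.31 (Spearman) over 11 species. Among the signalling genes the Pearson correlation was -0.03 for ptc with ci, -0.16 for ci with smo and 0.53 for ptc with smo (n = 13 each). Without the 2 farthest species these were -0.22, 0.36 and 0.44, so that of ci with smo changed sign without D. ananassae and D. simulans. These are descriptions, since all values of a species come from the same column and related species share ancestry.

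The melanogaster subgroup was compared with the other species in stage change and in both levels, with the median of every column set to 0. None of the 7 genes was called in any of the 3 comparisons. Of all genes tested, 9.55% were called for the stage change, 10.1% for the stage 2 level and 6.36% for the stage 5 level. At stage 2 every gene but smo was below 1 FPKM, so its centred level was set largely by the column median. The stage 2 comparison therefore cannot decide for these genes, and only smo could be compared there. The smallest unadjusted limma p of the 7 genes in the 3 comparisons was 0.0986, for wg in the stage change. The largest differences were in gsb and en. At stage 5 the centred level of gsb was -0.82 ± 0.65 (SD, n = 6 species) in the subgroup and -1.56 ± 1.10 (n = 7) elsewhere, a difference of 0.74 with a 95% interval of -0.39 to 1.87 (limma adjusted p = 0.427). That of en was 0.60 higher in the subgroup (-0.50 to 1.70, limma adjusted p = 0.511), and that of wg 0.45 higher (-0.39 to 1.29, adjusted p = 0.512). For ptc, ci, smo and hh the differences lay between -0.18 and 0.12. The maternal smo level was 0.36 higher in the subgroup (-0.13 to 0.86, limma adjusted p = 0.340). Without the mixed species 5, 19 and 1 of all genes were called, and fewer species then entered; mixing and the number of species cannot be told apart here.

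The stage calls were also read separately by mixing with D. melanogaster data. In the 7 species without mixing at either stage ci changed by 8.30, ptc by 7.29, wg by 4.72, gsb by 3.44, smo by 3.22, hh by 2.68 and en by 2.28, and in the 5 species mixed at both stages by 8.26, 7.74, 4.89, 3.81, 3.45, 2.74 and 2.77. All 7 genes were called higher in both sets (limma). The 7 species include D. pseudoobscura and D. miranda, labelled total RNA and titled latest5, and the 5 species do not. Mixing, RNA type and staging therefore cannot be told apart here. The en mean of the 7 species includes D. miranda at 0.20. For all but smo the calls in both sets are descriptions, because the filter was passed through stage 5 alone.

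Other genes of the pathway were read from a list of 24, of which 22 were in the table and all 22 were tested. Of these, 9 rose and 1 fell, with a median change of 0.83, but with columns at the same total 2 rose and 7 fell. Of all genes tested, 30.8% rose and 16.2% fell as deposited, and 8.61% rose and 40.7% fell at the same total. Ptr, which encodes a relative of Patched, rose most, by 8.83 ± 0.58 (SD over 13 species), with a stage 5 median of 577 FPKM. The glypican gene dally, whose product carries Hedgehog and Wingless at the cell surface, rose by 2.52 ± 1.02, to 5.15 FPKM. These were the 2 rises called under that rescaling as well, and both genes were below 1 FPKM at stage 2 in every species, so they too had to differ.

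Several genes for kinases and other proteins that act on Cubitus interruptus were present from stage 2 and rose by less than Ptr and dally. They were sgg (2.10 ± 0.33, n = 9), CkIalpha (2.00 ± 0.34, n = 12), the ubiquitin ligase subunit gene Cul1 (1.85 ± 0.54, n = 12), the kinesin-like scaffold gene cos (1.58 ± 0.49, n = 13) and Pka-C1 (1.10 ± 0.42, n = 13). The kinase genes fu (0.90 ± 1.12, limma adjusted p = 0.0131), gish (-0.24 ± 0.75) and Gprk2 (-0.44 ± 0.98) were not called. The exostosin-family gene botv rose by 1.26 ± 0.77 (n = 12). None of these 6 calls held with columns at the same total, where Pka-C1 was at -0.20 and the others were between 0.00 and 0.71, and the call of botv was also lost with each clade reduced to its mean (0.88, limma adjusted p = 0.0758). After quantile normalization CkIalpha (0.57), Cul1 (0.46) and Pka-C1 (0.73) were not called. The gene that fell was rdx, whose product targets full-length Cubitus interruptus for destruction. Its median went from 380 to 143 FPKM, and it fell by 1.27 ± 0.59 in 13 of 13 species (limma adjusted p = 3.52e-05). The ligand release gene disp (-0.24 ± 0.65) and the co-receptor genes ihog (0.40 ± 0.86) and boi (0.56 ± 1.40) were not called either. With columns at the same total disp, gish and Gprk2 were called lower, while ihog was at -0.86, boi at -0.61 and fu at -0.36. These 6 uncalled genes are named after their values were seen.

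Of 16 other segment polarity genes, 14 were tested, and 10 rose and 0 fell, with a median change of 2.49; with columns at the same total 7 rose and 3 fell, beside the shares of all genes given above. Of the genes that rose, slp1, slp2, nkd and mid were below 1 FPKM at stage 2 in every species, so they passed the filter through stage 5 alone and had to differ. The transcription factor gene slp1 rose by 6.57 ± 0.85 (SD, n = 13 species) and its near copy slp2 by 3.74 ± 0.75 (n = 11), and fragments of these can also be assigned to either. The Wingless antagonist gene nkd rose by 6.53 ± 0.48, to a median of 99.4 FPKM in 13 of 13 species. The nuclear effector gene of Wingless signalling, pan, rose by 4.25 ± 1.41, the T-box gene mid by 3.69 ± 0.72 and the receptor gene fz2 by 3.68 ± 1.33. The beta-catenin gene arm was already at 132 FPKM in the median species at stage 2 and rose by 2.81 ± 0.24 (n = 10), to 969 FPKM. The Wnt secretion gene wls rose by 2.18 ± 0.46, a call that was lost with columns at the same total (0.87).

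Of 6 other Wnt ligand genes, 2 were tested and both rose, beside 30.8% of all genes tested. wntD, which was at most 0.178 FPKM at stage 2 and passed the filter through stage 5 alone, is known to feed back on dorsoventral patterning. It rose by 5.04 ± 1.84 in 13 of 13 species. Wnt5 rose by 2.14 ± 2.55 in 8 of 10 species (limma adjusted p = 0.0163), but it was at 1.14 (adjusted p = 0.307) without the mixed species and at 2.03 (adjusted p = 0.214) with 1 mean per clade. The stage 5 medians of Wnt2, Wnt4, Wnt6 and Wnt10 were between 0.0144 and 0.327 FPKM, below that of wg.

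**Figure D4:**
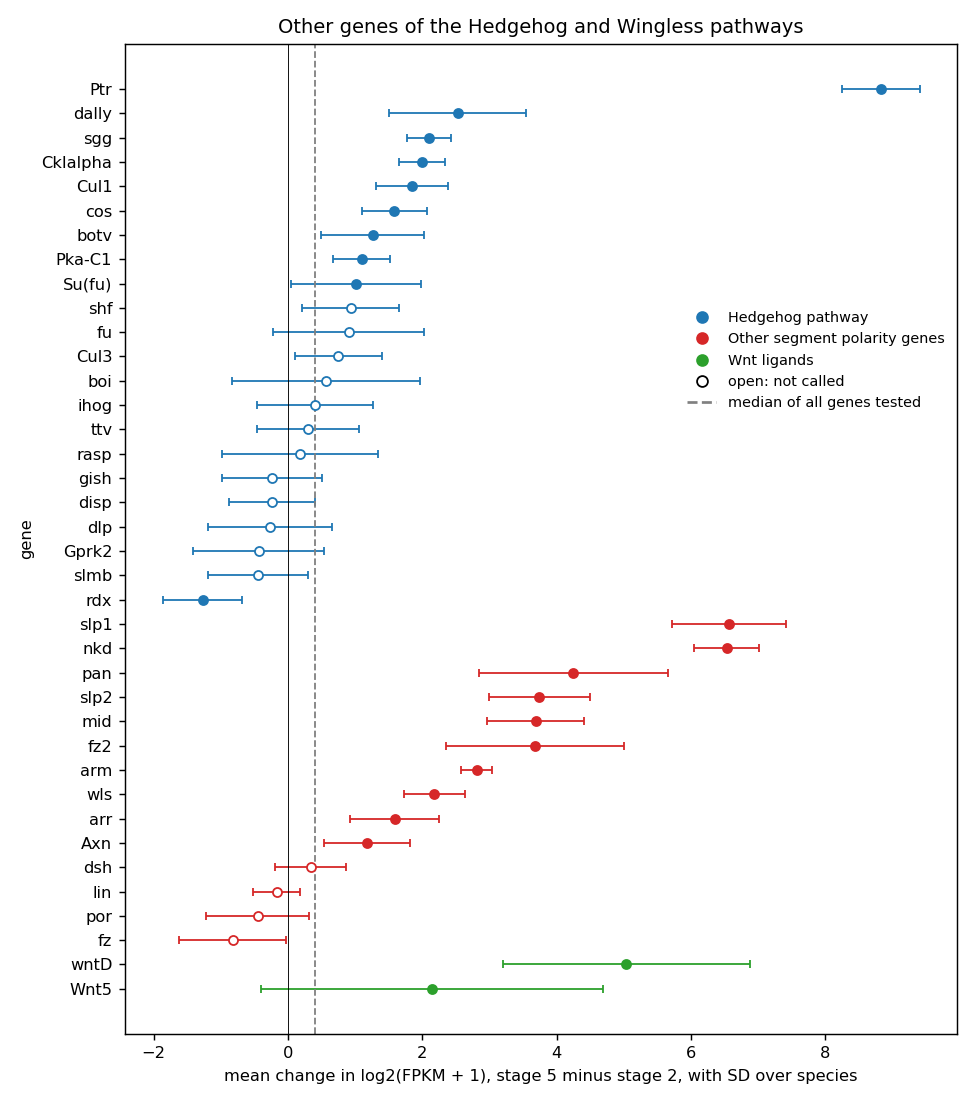
Mean change from stage 2 to stage 5 in log2(FPKM + 1), with SD over species, for the other Hedgehog pathway genes (blue), other segment polarity genes (red) and Wnt ligand genes (green). Filled points were called and open points were not, and the dashed line is the median of all genes tested (0.40). Ptr, slp1 and nkd lie farthest to the right and rdx farthest to the left.

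The genes whose profiles over the species and stages were most like those of the 8 were found by Pearson correlation of log2(FPKM+1) over at least 20 shared columns, as a description dominated by the difference between stages. For en they were Dscam1 (0.98, 23 columns), hh (0.97) and pnr (0.97). For hh they were mid, Dll and oc, and for gsb mid, Antp and Dll, all at 0.98. For ptc they were 18w, Blimp-1 and Egfr, for ci CG10035, Ptr and Dtg, and for wg KP78a, Ptr and pxb, all between 0.99 and 1.00. For smo they were CG14427, grh and run, at 0.98. For inv, whose values are near 0, they were CG15236, CG12003 and Rab26, between 0.87 and 0.90.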

How the data were processed

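The tools named in the submitters' processing notes (cutadapt, TopHat2, Cufflinks, Cuffdiff and Cuffnorm) and the range of the values were used to infer that the deposited values are FPKM made by the authors, with the embryos of a group combined. Tool versions and the genome build used for each species were not given in the sources used here. Depth is unknown, and no counting interval is given. A value of 0 can be a failed estimate and is given as listed at 0. The D. melanogaster stage 5 column of each of the 2 tables, 2 columns in all, was not used because it could not be tied to samples.

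Values of the wider table were used as log2(FPKM+1). Genes with both stages in at least 6 species and a mean of 1 FPKM or more were tested with limma 3.58.1 in R 4.3.3 (eBayes with trend, two-sided, Benjamini-Hochberg over all genes tested) on the stage difference per species. A call needed an adjusted p under 0.05 and, for the stage change, a mean change of at least 1. Clade comparisons needed at least 3 values a side. On simulated data the stage change test recovered 81% of log2 changes of 1.5 and 98% of changes of 3. The clade comparison of stage 5 levels recovered 15% and 69%, so smaller differences between clades would mostly be missed. Species share ancestry, so p-values that treat them as independent are too small. Members and lists were chosen with earlier results of these data known. All 8 members are named; of each list, the called genes are named, largest first, at most 8 per direction, and of similar genes the top 3. Alternatives were another pseudocount, filters, scalings, clade means, mixed and total RNA species left out, and each species left out.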

Additional observations from a re-analysis of the deposited data

Results flagged for a closer look

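Of 34 groups of species values examined for a species far from the rest, 4 were singled out, all for en. Chance alone singles out about 1 in 20 such groups when they are independent. These are not, since level and change nearly coincide for genes near 0 at stage 2. At stage 5, D. mauritiana had an en level of 1.05 on the log2(FPKM+1) scale, the lowest of the 6 species of the melanogaster subgroup with that stage, where the next was D. sechellia at 2.68. D. miranda had a level of 0.22, the lowest of the 7 species outside the subgroup, where the next was D. mojavensis at 1.94. Because en was near 0 at stage 2, the same species stood apart in the stage change, with 1.05 in D. mauritiana (next 2.68) and 0.20 in D. miranda (next 1.93).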

How the results depend on the processing

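All 7 tested members kept their stage call in 26 alternative settings. Among these, the setting without D. miranda and D. mauritiana was chosen after seeing the data. For all members but smo the kept calls are descriptions, because those genes passed the filter on mean FPKM through the later stage alone. Only the kept call of smo bears on how far the calls depend on processing. Lowest values were 1.96 (en), 2.04 (smo), 2.18 (hh), 2.89 (gsb) and 4.02 (wg) with columns at the same total of genes below 100000 FPKM, and 6.43 (ptc) and 7.00 (ci) after quantile normalization. No paired analysis was possible because each value combines the embryos of a group; the stage difference was taken within species.

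Counts moved with scaling. Genes called higher numbered 1357 (quantile) and 656 (same total), and genes called lower 3099 (same total). For the Hedgehog pathway 5 rose and 3 fell (quantile), and 2 rose and 7 fell (same total). Other segment polarity genes called lower numbered 1 (centred), 1 (quantile) and 3 (same total). Wnt ligands called higher numbered 1 with the same total, 1 with clade means and 1 without mixed species. Among genes called in either setting, the same total reversed the change of rasp (-1.01, limma adjusted p = 0.0104), Su(fu) (-0.26), Pka-C1 (-0.20) and Axn (-0.15), of which rasp, Su(fu) and Axn were named after their values were seen. The change of ihog (-0.86), boi (-0.61), fu (-0.36), Cul3 (-0.56), ttv (-0.97) and dsh (-0.95), called in neither, also turned from positive to negative. Su(fu) rose by 1.02 as deposited, a call also lost without D. yakuba, D. santomea, D. erecta, D. ananassae or D. mojavensis (0.87 to 0.98). It was lost as well with median centring (0.65) and quantile normalization (0.72). The same held without the mixed species (1.22, limma adjusted p = 0.0529) and in the species mixed at both stages (0.83, limma adjusted p = 0.0678).

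Clade counts were the least stable. For the stage change they were 5 without mixed species and 356 without D. pseudoobscura and D. miranda, for the stage 2 level 19 without mixed species, and for the stage 5 level 1 and 260. Leaving out 1 species gave 460 to 934 for the stage change (460 without D. simulans, 473 without D. santomea), 519 to 924 for the stage 2 level and 303 to 676 for the stage 5 level (303 without D. mauritiana, 305 without D. santomea, 308 without D. sechellia). Fewer species enter these fits. Otherwise leaving out 1 species gave 2319 to 2364 genes higher, 1190 to 1246 lower and 8 to 10 Hedgehog pathway genes higher.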
